A study of Mus musculus with 40 samples.

Results

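Oocytes of primary follicles were compared with oocytes of primordial follicles, the step at which a resting mouse oocyte enters growth. The comparison takes every sample whose title names either stage, 16 of the 40 samples of the series, with 4 primary and 4 primordial samples on each of the Affymetrix arrays 430A and 430B. These arrays hold separate sets of probes and were analysed apart. The series follows oocytes of female mice labelled SJLB6, with no genetic change or treatment named, through 5 follicle stages. Primary oocytes came from mice 6 days old, with 90 oocytes pooled in a sample. Primordial oocytes came from mice 2 days old, with 400 oocytes pooled in a sample. Age and pool size thus differ together with the stage, and their effects cannot be told apart from it. The labels call the 4 samples of a stage biological replicates and do not say which animals each holds, so p-values reflect only how far these samples lie apart.

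In a newborn mouse ovary the oocytes have completed the early part of meiotic prophase, halt at the dictyate stage and are enclosed by a layer of flat pregranulosa cells as primordial follicles. A few leave this resting pool at a time: the pregranulosa cells become cuboidal, signalling through the receptor Kit and PI3 kinase in the oocyte moves the transcription factor Foxo3 out of the nucleus, and the oocyte begins to enlarge, to build its zona pellucida and to store messenger RNA for the embryo. The oocyte does not divide in this interval, and the comparison is of samples labelled as oocytes before and after growth starts. Signals of other ovarian cell types in these pools are given below.

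The deposited primordial arrays were not independent of each other, which touches every value below. On 430A 100 probe sets with a value off a 0.1 grid in a column of another stage were left out first, and 0 on 430B. Primordial replicate 1 and the columns of other stages then had 0% of values off the grid, for other stages on 430A by that choice. Of the values of primordial replicates 2, 3 and 4, between 49.4% and 50.2% lay off it on both array types. Doubling such a column and subtracting replicate 1 brought it back to that grid and gave 0 negative values among 22526 probe sets on 430A and 22411 on 430B, whereas the same operation on 48 ordered pairs of replicates of other stages gave between 1120 and 2857 negative values on 430A and between 1989 and 3790 on 430B. Replicate 1 therefore makes up 62.5% of a mean over the deposited primordial columns. The doubled and subtracted values are called unmixed here, and all primordial signals below are unmixed unless stated. A probe set was called as changed only if its adjusted p was under 0.05 both with the deposited and with the unmixed values, in the same direction, and "rose" and "fell" refer to primary relative to primordial oocytes by that rule. Adjusted p-values printed are those of the unmixed values.

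Unmixed primordial arrays resembled each other less than primary arrays did. Pairwise correlations of log2 signals lay between 0.971 and 0.978 for primary and between 0.857 and 0.938 for primordial arrays on 430A, and between 0.911 and 0.919 for primary and between 0.786 and 0.814 for primordial arrays on 430B. For the Actb control probe sets the log2 ratio of the 3' over the 5' signal was 2.14, 2.19, 2.07 and 2.18 on the 4 primary arrays, where it was read on 430B, and 1.77, 5.94, 3.03 and 6.24 on primordial replicates 1 to 4, where it was read on 430A, so the ratios of the stages come from different array types. Primordial replicates 2 and 4 thus had far weaker 5' relative to 3' signal for this control than replicates 1 and 3, and its part in the results was not tested. Calls were therefore also counted with primordial replicates 1 and 3 alone. The unscaled signal of an 18S ribosomal RNA control was 350.1, 521.4, 446.2 and 496.7 on the 4 primary arrays, again read on 430B. On primordial replicates 1 to 4, read on 430A, it was 4274.3, 13371.8, 7407 and 10406. Its part in the results was not tested either. All arrays were scaled to the same trimmed mean of 500, so a signal is a level relative to the rest of an array, and a change in the number of cells of a type in a pool cannot be told apart from a change in RNA per cell.

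All 12 oocyte markers on the arrays reached a signal of 100, and their summed signal was between 131874.4 and 137038 in primary and between 75065.8 and 104714.2 in primordial samples. Markers of other ovarian cells had lower sums, though most members of each list reached 100 in at least 1 sample. By mean signal the strongest were Foxl2 for granulosa cells, Acta2 for stroma, Lrrn4 for surface epithelium, Flt1 for endothelium and Csf1r for blood. The sum of 16 granulosa cell markers was higher in every primary sample (4102 to 5219.8) than in any primordial sample (3465.1 to 3764.1). The part of this in the rises was not tested. Amh, Inhba and Wnt4 reached 100 in no sample. Of the 14 theca, stroma and fibroblast markers the sum was lower in every primary sample, between 1020.3 and 1345.9, than in any primordial sample, between 1659.4 and 2928.7, with Nr2f2, Col5a2 and Cyp11a1 under 100 throughout; its part in the falls was not tested. Sums for 11 endothelial markers were between 1000.8 and 1312.9 in primary and between 861.9 and 1413.2 in primordial samples, with Pecam1, Tie1 and Vwf under 100. For 13 blood and immune markers they were between 1097.5 and 1730.2 in primary and between 1144.8 and 2782.2 in primordial samples, with Hbb-y, Alas2, Ptprc and Cd52 under 100, and for 9 surface epithelium markers between 629.5 and 900.5 in primary and between 524 and 994.8 in primordial samples, with Krt19, Msln and Wt1 under 100. Among the tested markers of these other cells, Nr5a2 rose and Nr0b1 fell of 10 for granulosa cells, Dcn and Star fell of 7 for theca and stroma, and 0 of 3 for surface epithelium, 0 of 5 for endothelium and 0 of 6 for blood were called. Nr5a2 lost its call without any 1 of the 4 primary arrays or without primordial replicate 3, with limma adjusted p between 0.051 and 0.09.

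A large share of the measured transcripts differed between primary and primordial samples. On 430A 5925 of 14329 tested probe sets were called (41.3%), of which 2879 rose (20.1%) and 3046 fell (21.3%). On 430B 3024 of 16826 were called (18%), of which 1408 rose (8.37%) and 1616 fell (9.6%). Changes of at least 16-fold were made by 15 rises and 5 falls on 430A and by 24 rises and 5 falls on 430B. With 1 probe set per gene, a rule that takes 430A before 430B, 2644 of 14308 genes rose (18.5%) and 2175 fell (15.2%). These shares are the background for each list below, but 8780 of these genes were read on 430A, where calls were more frequent. A list mostly of 430A genes is therefore also to be read against the 430A probe set shares of 20.1% and 21.3%. On 430A were read 45 of 45 cytoplasmic ribosomal protein genes, 77 of 80 of the respiratory chain and 72 of 75 mitochondrial ribosomal protein genes. Of the Nlrp and Oog list 4 of 17 were. The balance of rises and falls rested on the scaling: rises were 48.6% of the 430A calls and 46.6% of the 430B calls, and 60.9% and 72% of them with every array brought to a common median, under which the median log2 change over genes was 0.22 in place of -0.03. Changes given below as a number alone are log2 values, primary minus primordial, with SE and n = 4 per stage where an error is given, and signals given as averages are means ± SD. A list median smaller than that shift has no settled direction.

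The strongest rise on either array type was that of Gm1070, an uncharacterised gene, with scaled signals of 12499, 13159, 13935 and 12157 in primary oocytes, against 58.9, 65.5, 66.4 and 81.5 in primordial oocytes. Every primordial signal lay under 100, and the log2 change was 7.02 ± 0.17 (SE, n = 4 per stage; adjusted p = 1e-10). Obox2, an oocyte homeobox gene, gave 7982, 8437, 8219 and 8778 in primary oocytes, against 59.2, 101, 78.8 and 119 in primordial oocytes, a log2 change of 6.14 ± 0.18 (adjusted p = 9.5e-08). With the deposited values the changes were 7.09 and 6.32 on the log2 scale, and another Obox2 probe set rose by 5.52. Pabpn1l, whose protein binds poly(A) tails, had 9387, 10239, 8171.7 and 7745 in primary oocytes, against 31.7, 786, 242 and 74.3 in primordial oocytes, with a primordial spread of over an order of magnitude and a log2 change of 5.49 ± 0.58.

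Among genes of meiotic resumption and egg chromatin, the kinase gene Mos, whose product holds the ovulated egg in metaphase, gave 5522, 6527, 5859.9 and 6189 in primary oocytes, against 271, 375, 231 and 64.9 in primordial oocytes (4.67 ± 0.37, adjusted p = 1.2e-05). H1f8, the oocyte linker histone, gave 3849, 4677, 4049.6 and 4357 in primary oocytes, against 290.3, 52.1, 99.8 and 86.5 in primordial oocytes (4.89 ± 0.35). The groups of 4 did not overlap for either gene. Rfpl4, an oocyte RING finger gene, changed by 5.30 ± 0.32, Oog3 by 5.36 ± 0.52, Klhl8, of the Kelch family, by 4.99 ± 0.51 and Fgd6 by 4.99 ± 0.22. Genes better known from other organs were among them too. Cpa1, a pancreatic carboxypeptidase, changed by 5.56 ± 0.44 and Miox, an inositol-cleaving enzyme of the kidney, by 4.08 ± 0.16, with Miox signals of 8075, 8144, 8103 and 8404 in primary oocytes, against 462, 599, 414 and 372 in primordial oocytes. Cd7, an antigen of lymphocytes, changed by 4.15 ± 0.20, the Ras regulator Rasa4 by 4.67 ± 0.26, the lipid droplet gene Bscl2 by 4.41 ± 0.18, the organic anion transporter Slco3a1 by 4.06 ± 0.28 and the microfibril gene Mfap2 by 4.03 ± 0.30.

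The deepest falls were led by Malat1, a long nuclear noncoding RNA. On 430A its signals were 291, 313, 353 and 309 in primary oocytes, against 3480, 11855, 8739 and 11977 in primordial oocytes, a log2 change of -4.55 ± 0.35 (adjusted p = 1e-05), and another probe set on 430B changed by -4.83 ± 0.35. Primordial replicate 1 had the lowest of the 4 primordial signals on both array types, still well above every primary one, and all 7 tested probe sets of the gene fell. Psat1, an enzyme of serine synthesis, gave 22.3, 34.4, 5.7 and 40.2 in primary oocytes, against 1011, 867.8, 1153 and 1126 in primordial oocytes (-4.25 ± 0.24), so that every primary signal lay near the bottom of the scale. Selenop, a secreted selenium carrier, gave 41.5, 52.6, 81.9 and 23.3 in primary oocytes, against 1112, 1733, 2049 and 1813 in primordial oocytes (-4.40 ± 0.27). Hmmr, a spindle-associated protein, gave 196, 182, 209 and 193 in primary oocytes, against 2190.4, 2157, 2539 and 2382 in primordial oocytes (-3.37 ± 0.14), with little spread within either stage.

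The other falls came from varied families. Retreg1, a receptor for autophagy of the endoplasmic reticulum, changed by -3.82 ± 0.28, the zinc finger gene Egr2 by -3.67 ± 0.25, the germ cell transcription factor gene Tcfl5 by -3.64 ± 0.33, the actin-binding gene Lasp1 by -3.47 ± 0.48 and Rabgap1 by -3.34 ± 0.32. Tktl1, a transketolase relative, changed by -3.46 ± 0.18, the RING finger gene Trim25 by -3.41 ± 0.20 and Ift27, of intraflagellar transport, by -3.39 ± 0.16. On 430B the glutamine transporter gene Slc38a1 changed by -4.42 ± 0.36, the synaptonemal complex gene Syce3 by -4.30 ± 0.38 and the zinc finger gene Zfp266 by -4.15 ± 0.43. Smg1, a kinase of nonsense-mediated decay, changed by -4.23 ± 0.37 with this probe set, the only one called of its 3 tested.

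**Figure D1:**
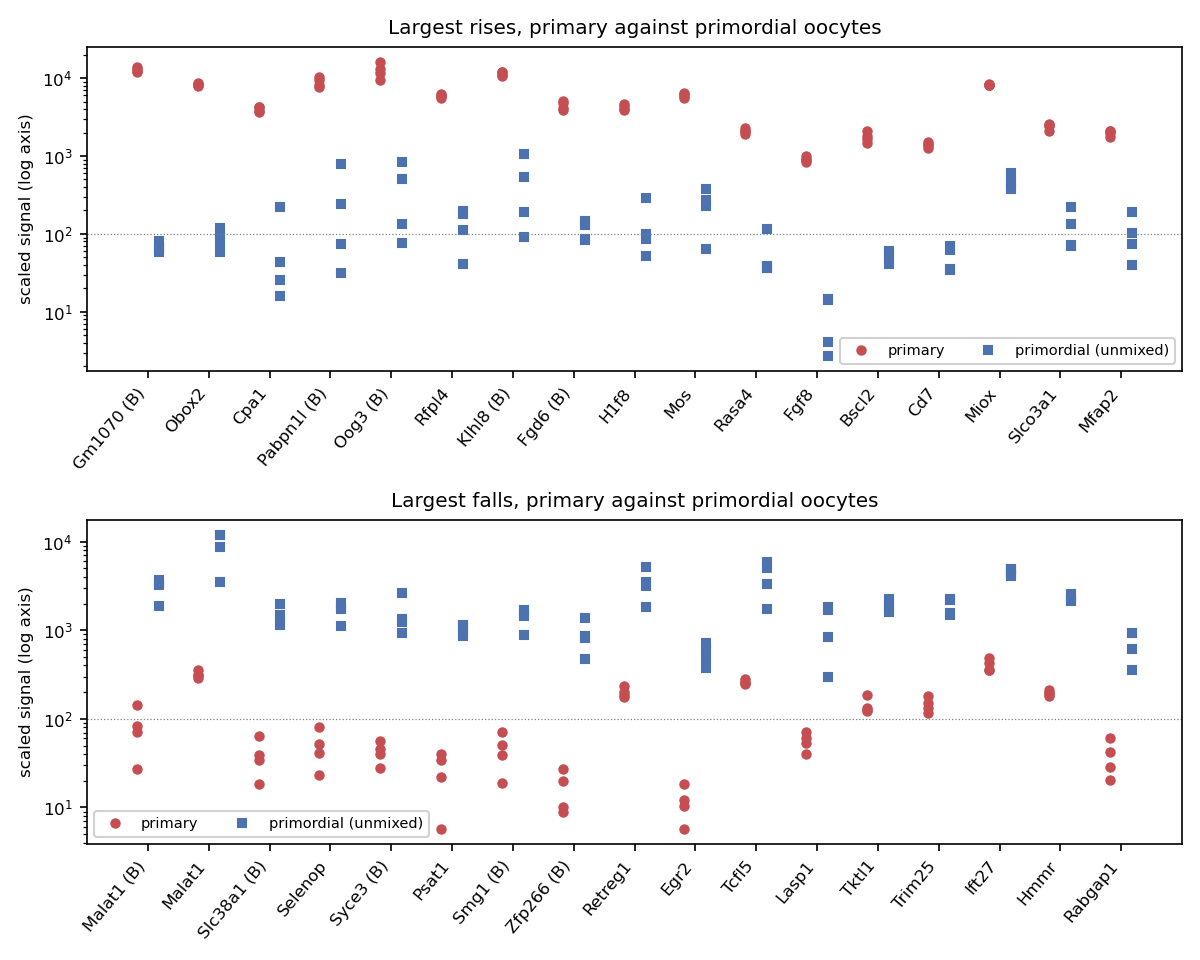
Scaled signal of each array (log axis) for the genes of largest rise (upper plot) and largest fall (lower plot), with primary samples as circles on the left of each pair and unmixed primordial samples as squares on the right; "(B)" marks 430B probe sets and the dotted line a signal of 100. The 4 circles and 4 squares of each gene do not overlap, and the squares spread more widely than the circles for genes such as Pabpn1l, Klhl8 and Cpa1.

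Some probe sets crossed the range from under 100 in every sample of a stage to at least 500 in every sample of the other. On 430A 10 did so upward and 4 downward, and on 430B 6 upward and 7 downward. Those with a gene symbol, chosen after their values were seen where the named-gene rule does not hold them, were Fgf8, Bscl2, Cd7, Upp1, Zfp57, Cops9, Dusp1, Fbxw14 and Stard13 on 430A and Gm1070, Cpne9, Gsdmc2, Emc8, Xpo5 and Mon2 on 430B for primary oocytes. For primordial oocytes they were Selenop, Psat1, Wdr6 and Dck on 430A and Slc38a1, Syce3, Smg1, Ropn1l, Srcap and Rsf1 on 430B.

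Most probe sets that changed at least 4-fold stayed nearer to their primary than to their primordial level at the later stages. Of 451 probe sets on 430A that rose at least 4-fold, 447 were nearer to the primary than to the primordial level in secondary oocytes (99.1%), 431 in small antral (95.6%) and 426 in large antral oocytes (94.5%). Of the 312 that fell at least 4-fold, 311, 307 and 306 did so (99.7%, 98.4% and 98.1%). On 430B the shares were 98.9%, 95.3% and 93.9% of 359 rises and 94.8%, 92.7% and 92.7% of 289 falls. These shares describe levels and carry no test. A probe set that moved further away from its primordial level also counts as nearer to the primary one. The shares thus do not say that primary levels were kept. For 3 of the 4 small antral samples on 430B the titles say small antral, whereas the protocol labels give the age and pool size of secondary oocytes. They were taken by title, and which stage they hold is not settled, which touches the small antral shares on 430B and the small antral values of Gm1070. Mean signals of Obox2 went on to 24431, 26914 and 18767 in secondary, small antral and large antral oocytes, and those of Sycp3, an axial element protein of meiotic chromosomes, to 478, 289.6 and 246.

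**Figure D2:**
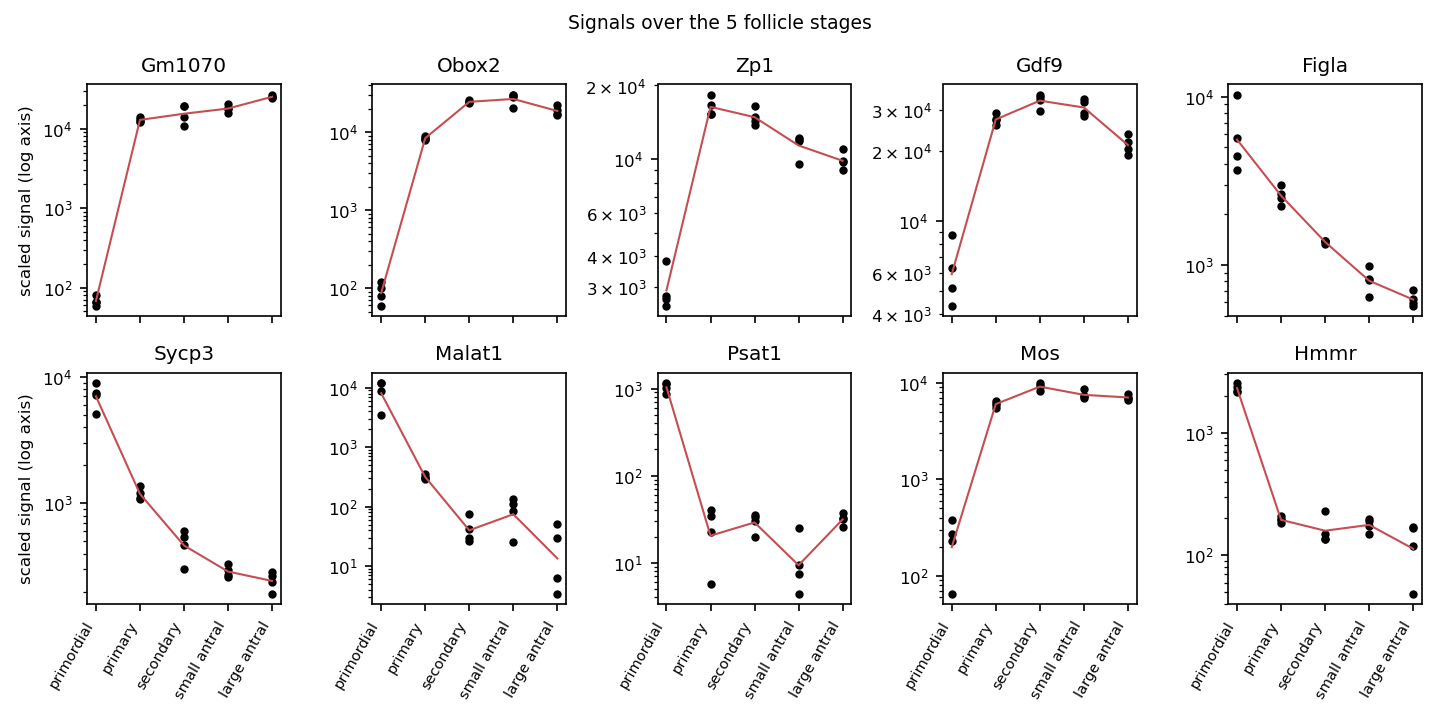
Scaled signals (log axis, a scale of its own in each plot) of 10 genes over the 5 follicle stages in developmental order; points are the 4 samples of a stage, primordial values unmixed, and lines join the geometric means. For 3 of the 4 small antral samples of Gm1070, a 430B probe set, the labels conflict on the stage. Gm1070, Obox2, Zp1, Gdf9 and Mos step up between primordial and primary oocytes, and Psat1, Hmmr and Malat1 step down there. Malat1 is lower still at the later stages, and Figla and Sycp3 go on to lower levels at each later stage.

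Genes of the pathway that governs follicle activation moved in both directions. Of 32 tested genes of Kit, PI3 kinase, Foxo3 and mTOR signalling, 8 rose and 7 fell (25% and 21.9%, near the background), with a median log2 change of 0.14. Pik3cd, a catalytic subunit of PI3 kinase, gave 2741, 2808, 2432 and 2281 in primary oocytes, against 480, 189, 232 and 159.8 in primordial oocytes, a log2 change of 3.23 ± 0.28 (adjusted p = 2.1e-05). Eif4ebp1, which blocks cap-dependent translation until mTOR phosphorylates it, gave 717, 800, 750.4 and 826 in primary oocytes, against 5701, 6506, 5122 and 4603 in primordial oocytes (-2.77 ± 0.15, adjusted p = 2e-06). In neither gene did the stages overlap. The 2 Foxo genes named went opposite ways: Foxo3, the factor that keeps mouse oocytes dormant, gave 1560.3, 1296, 2057 and 1262 in primary oocytes, against 2676, 3261, 3477 and 3017 in primordial oocytes (-1.02 ± 0.18), whereas Foxo1 gave 2381, 2341, 2477 and 2152 in primary oocytes, against 809.5, 1069, 1054 and 781 in primordial oocytes (1.32 ± 0.15). Mapkap1, a subunit of mTOR complex 2, and Stk11, a kinase upstream of AMPK, rose by 1.26 and 1.06, while Rheb, the activator of mTOR complex 1, changed by -0.77.

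Kit itself was not called. Its signals were 4429, 5176, 4484 and 4517 in primary oocytes, against 5749, 2231, 3184 and 2195 in primordial oocytes, and primordial replicate 1 lay above and the other primordial samples below the primary range, so the groups overlapped (0.59 ± 0.28, adjusted p = 0.12). Another probe set of Kit was called in the opposite direction. Akt1 had a log2 change of 0.53 ± 0.20 and Tsc2 of 0.85 ± 0.55, neither of them called. Among 15 ligands and receptors that act on follicle activation from outside, Il6st, the shared receptor subunit of the interleukin 6 family, alone was called (6.67% rose, against 18.5% of all genes), with 744 ± 61.0 in primary and 289 ± 122 in primordial oocytes (SD, n = 4 each), and another of its probe sets was called as a fall.

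Oocyte transcription regulators moved in both directions. Of 16 tested, 5 rose and 6 fell (31.2% and 37.5%), with a median of -0.30, or 0.04 with arrays at a common median. The homeobox gene Obox5 gave 13155, 15724, 13485 and 12396 in primary oocytes, against 579, 642, 748 and 839 in primordial oocytes (4.23 ± 0.16), and the imprint-guarding zinc finger gene Zfp57 averaged 949.8 ± 90.6 in primary and 50.6 ± 16.3 in primordial oocytes (3.59 ± 0.20). Stat3 changed by 0.78, but another of its probe sets was called as a fall. Figla, a helix-loop-helix factor needed for follicle formation and for zona gene transcription, gave 2253, 2642, 2482 and 2996 in primary oocytes, against 10208, 3679.6, 5671 and 4464 in primordial oocytes (-1.10 ± 0.28, adjusted p = 0.0099). Primordial replicate 1 stood well above the other primordial samples, all of which exceeded the primary ones. Tcf12, a partner of such factors, changed by -1.56, Yy1 by -0.65 and the LIM homeobox gene Lhx8 by -0.76. Nobox, whose loss blocks the same transition in mice, had 3871, 3822, 4449.9 and 4138 in primary oocytes, against 3515, 3515, 2638 and 1576 in primordial oocytes and was not called (0.59 ± 0.24, adjusted p = 0.072), although every primary sample exceeded every primordial one.

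Of 20 germ cell and pluripotency factors, 6 rose and 4 fell (30% and 20%), with a median of -0.08, or 0.12 with arrays at a common median. Dppa5a, an RNA-binding protein of pluripotent cells, averaged 21029 ± 737 in primary and 2898 ± 727 in primordial oocytes (2.88 ± 0.18), and Tcl1, a cofactor of Akt kinases, 11329 ± 375 in primary and 3432 ± 374 in primordial oocytes (1.72 ± 0.13). The let-7 blocker Lin28a rose by 2.22 and Dppa2 by 1.58. The 4 falls included Zfp42, Rhox5 and Dppa4, each called in every alternative setting in which it was tested. Over those settings Zfp42 changed by between -2.71 and -1.32, Rhox5 by between -1.27 and -0.83 and Dppa4 by between -0.86 and -0.6. Dazl, an RNA-binding protein of germ cells, had a log2 change of 0.22 and no call.

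Genes of the zona pellucida and of growth factors secreted by the oocyte toward granulosa cells mostly rose. Of 9 tested, 7 rose and 0 fell (77.8%), and the median log2 change of 1.95 was 2.07 after quantile normalization and 2.12 with arrays at a common median. Fgf8, which acts on granulosa cell metabolism, gave 1013, 902, 846 and 924 in primary oocytes, against 2.7, 4.1, 14.5 and 14.2 in primordial oocytes (4.55 ± 0.20). Bmp6 gave 3493, 3623, 3739 and 3553 in primary oocytes, against 356, 281, 364 and 411 in primordial oocytes (3.25 ± 0.15). Gdf9, needed for follicles to pass beyond the primary stage, gave 27492, 27118, 25844 and 29052 in primary oocytes, against 4336, 8735, 5192 and 6274 in primordial oocytes (2.20 ± 0.21, adjusted p = 3.5e-05).

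Of the 3 zona glycoproteins tested, Zp1 and Zp3 rose and Zp2 was not called. Zp1 gave 18280.1, 15299, 16707 and 15307 in primary oocytes, against 2764, 3816, 2513 and 2687 in primordial oocytes (2.48 ± 0.17). Zp3, long studied as a sperm ligand, gave 23609.9, 23464, 23528 and 22346 in primary oocytes, against 10220.1, 17712, 12162 and 15049 in primordial oocytes (0.78 ± 0.18, adjusted p = 0.0067), so its primordial signal was already a large part of the primary one. Zp2 gave 22011, 19968, 21345 and 20035 in primary oocytes, against 14967, 37758, 29759 and 37448 in primordial oocytes, with overlapping stages and no call (-0.44 ± 0.28, adjusted p = 0.23). Bmp15, the partner of Gdf9, gave 919, 967, 1295 and 1302 in primary oocytes, against 109.6, 445, 314 and 391 in primordial oocytes (1.85 ± 0.35). Gdf3, an inhibitor of BMPs, had signals of 88.7, 88.7, 101 and 129 in primary oocytes, against 77.5, 163, 140.4 and 241 in primordial oocytes and was not called.

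Of 16 egg surface and fertilization genes, 8 rose and 4 fell (50% and 25%), with a median of 0.82. Oas1e, of an oocyte-expressed branch of the oligoadenylate synthetases, averaged 19025 ± 1855 in primary and 1262 ± 331 in primordial oocytes (3.91 ± 0.19), and Astl, the protease that cleaves zona protein after fertilization, 35428 ± 2156 in primary and 4505 ± 1021 in primordial oocytes (2.99 ± 0.18). Plat, the tissue plasminogen activator, rose by 2.07 and Oas1c by 1.74. Integrin subunit genes were on the other side: Itgb1 changed by -2.35 and Itgav by -1.71, as did the complement regulator Cd55 by -1.16 and the lactadherin gene Mfge8 by -0.73.

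The subcortical maternal complex, a protein assembly under the egg membrane that the early embryo needs, and the oocyte Nlrp and Oog families gave 13 rises and 0 falls among 17 tested genes (76.5%), with a median of 2.31, and of 2.10 and 2.67 under the other scalings. Oog4 gave 10522, 10499, 11255 and 11677 in primary oocytes, against 632, 936, 628 and 1311 in primordial oocytes (3.66 ± 0.21), Nlrp4e 2884, 3157, 2981 and 3846 in primary oocytes, against 160.3, 141, 388 and 118 in primordial oocytes (3.92 ± 0.30) and Nlrp9b 5594, 6358, 6879.8 and 5949 in primary oocytes, against 793, 747, 849.5 and 779.5 in primordial oocytes (2.91 ± 0.14). Every primordial sample of these 3 genes lay far below the lowest primary one. Others had strong signals in both stages and were not called: Nlrp5, the best studied member of the complex, gave 20989.5, 22383, 21559.5 and 20607 in primary oocytes, against 18657, 30636, 25786 and 27532 in primordial oocytes (-0.24 ± 0.18, adjusted p = 0.31), Nlrp14 50262, 50967, 43829.9 and 48727 in primary oocytes, against 30730.3, 69623, 63037 and 83294 in primordial oocytes (-0.26 ± 0.29) and Nlrp4f 30751, 31804, 27522 and 32862 in primary oocytes, against 29539, 15618, 24365 and 21224 in primordial oocytes (0.47 ± 0.21), each with overlapping stages. Ooep had a log2 change of 0.62 ± 0.20 and missed the threshold with an adjusted p of 0.053, although its stages did not overlap. Nlrp4 and Nlrp9 paralogs are alike in sequence, so which of them a probe set reads is uncertain.

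F-box genes, whose products bring proteins to a ubiquitin ligase, had 23 rises and 8 falls among 58 tested (39.7% and 13.8%), with a median of 0.21. All 9 tested Fbxw genes that lie together on chromosome 9 rose, with a median of 2.82, whereas 14 of the other 49 F-box genes rose and 8 fell, with a median of 0.08. This cluster was singled out after its values were seen. Fbxw19 gave 31956, 32895, 31834 and 31974 in primary oocytes, against 1501, 3294, 2333 and 3047 in primordial oocytes (3.71 ± 0.22), Fbxw18 41589.6, 41509, 42222 and 41095 in primary oocytes, against 5054, 6729, 5458 and 6437 in primordial oocytes (2.82 ± 0.16) and Fbxw24 53339.6, 56616, 53709 and 57464 in primary oocytes, against 5582, 10182, 5155 and 6585 in primordial oocytes (3.05 ± 0.21). The primary samples of each differed by a few percent while every primordial sample lay several times lower. Fbxw27 and Fbxw22 rose by 2.81 and 2.91, and the remaining members, Fbxw13, Fbxw14, Fbxw16 and Fbxw21, by between 1.70 and 3.80. Outside the cluster Fbxw7, which marks cyclin E and Myc for destruction, changed by -1.34, Fbxo22 by -1.97 and Fbxw11 by -1.02.

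The promoters of 4 cluster genes that rose are shown, and the longest stretch of sequence common to these 4 is given below them. That all 4 hold it follows from how it was taken. RefSeq's GRCm38.p6 table lists 12 Fbxw promoters in this cluster, each of 300 bases from 250 before to 50 after the annotated start. Of the 9 genes that rose, 6 have a promoter among these 12, and Fbxw13, Fbxw22 and Fbxw27 do not. The sequences run 5′ to 3′ on the gene's strand, and capitals mark matches to CANNTG, the E-box to which helix-loop-helix factors such as Figla bind.
Fbxw14 (chr9:109287627-109287926, minus strand): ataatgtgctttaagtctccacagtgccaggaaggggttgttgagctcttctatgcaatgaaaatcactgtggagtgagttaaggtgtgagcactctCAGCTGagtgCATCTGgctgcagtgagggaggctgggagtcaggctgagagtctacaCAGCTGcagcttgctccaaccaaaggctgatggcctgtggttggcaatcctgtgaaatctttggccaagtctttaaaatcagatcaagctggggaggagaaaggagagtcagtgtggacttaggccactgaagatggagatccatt
Fbxw19 (chr9:109495805-109496104, minus strand): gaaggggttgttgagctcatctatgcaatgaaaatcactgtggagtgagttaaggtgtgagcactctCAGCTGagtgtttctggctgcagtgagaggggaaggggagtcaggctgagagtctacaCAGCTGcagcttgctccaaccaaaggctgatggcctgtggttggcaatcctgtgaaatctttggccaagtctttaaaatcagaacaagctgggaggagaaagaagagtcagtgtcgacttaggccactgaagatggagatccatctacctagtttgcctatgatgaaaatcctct
Fbxw24 (chr9:109626010-109626309, minus strand): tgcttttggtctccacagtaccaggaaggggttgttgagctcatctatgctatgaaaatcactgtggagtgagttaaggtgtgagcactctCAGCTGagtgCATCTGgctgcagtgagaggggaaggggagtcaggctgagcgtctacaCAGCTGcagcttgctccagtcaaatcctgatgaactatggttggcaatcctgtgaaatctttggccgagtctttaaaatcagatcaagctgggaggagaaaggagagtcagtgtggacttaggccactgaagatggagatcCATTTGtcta
Fbxw18 (chr9:109702651-109702950, minus strand): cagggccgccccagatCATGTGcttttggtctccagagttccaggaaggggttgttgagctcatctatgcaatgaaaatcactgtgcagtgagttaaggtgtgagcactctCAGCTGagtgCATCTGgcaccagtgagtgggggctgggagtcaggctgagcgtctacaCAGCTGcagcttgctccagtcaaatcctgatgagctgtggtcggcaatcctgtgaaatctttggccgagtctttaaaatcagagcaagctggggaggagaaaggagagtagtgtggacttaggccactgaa

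All 4 hold the stretch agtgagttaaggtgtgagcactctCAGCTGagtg, 34 bases with an E-box inside, at different distances from the annotated start. It stands in 9 of the 12 cluster promoters and in 9 of all 27025 listed promoters, so in none outside the cluster. Aligned at the annotated start without shifts, the 66 pairs of the 12 promoters were between 17.7% and 91.3% identical, with a median of 26.7%. Shifted against each other without gaps, the 4 sequences shown were between 60.8% and 93.5% identical over 256 to 294 bases. All 12 cluster promoters hold an E-box, but so do 72.1% of all listed promoters, 65.2% of the 11471 found for tested genes, 71% of the 389 found for genes that rose at least 4-fold and 69.5% of the 190 found for genes that fell at least 4-fold. Such a match describes letters and says nothing of binding.

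**Figure D3:**
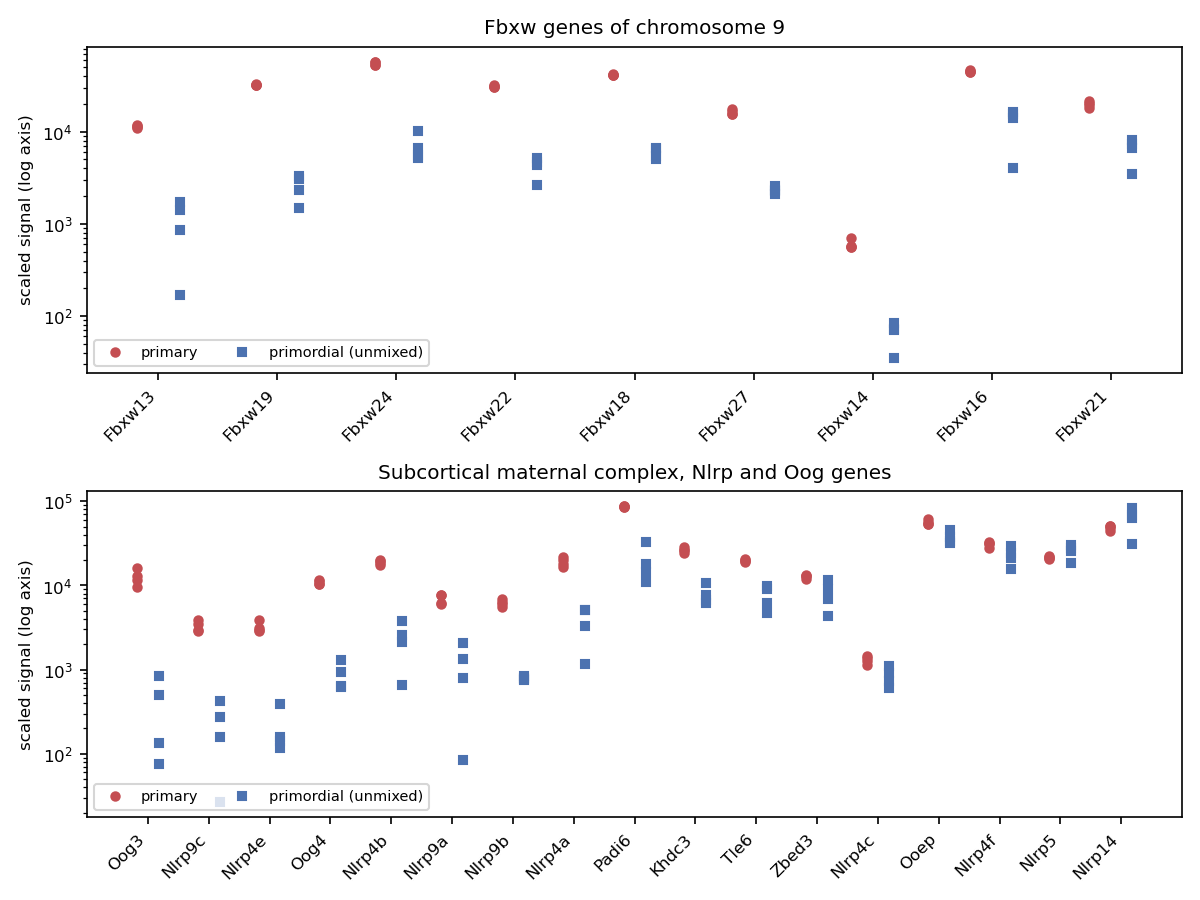
Scaled signal of each array (log axis) for the Fbxw genes of chromosome 9 (upper plot) and for the subcortical maternal complex, Nlrp and Oog genes (lower plot), ordered by the size of the change, with primary samples as circles on the left of each pair and unmixed primordial samples as squares on the right. The circles of all 9 Fbxw genes lie above their squares, while Nlrp4f, Nlrp5 and Nlrp14 at the right end of the lower plot overlap.

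A promoter of a zona gene and one of an Oog gene are set beside them, since Zp3 is a known target of Figla and Oog3 was among the largest rises. For Oog3 the capitals also mark TAATTG, a homeobox element, read on the other strand as CAATTA, and TATAAA.
Zp3 (chr5:135979855-135980154, plus strand): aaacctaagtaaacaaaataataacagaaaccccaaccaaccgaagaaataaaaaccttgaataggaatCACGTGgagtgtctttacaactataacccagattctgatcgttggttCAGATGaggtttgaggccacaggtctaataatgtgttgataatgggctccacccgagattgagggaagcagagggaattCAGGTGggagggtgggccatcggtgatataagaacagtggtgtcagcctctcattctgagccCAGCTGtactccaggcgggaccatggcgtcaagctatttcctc
Oog3 (chr4:144162602-144162901, minus strand): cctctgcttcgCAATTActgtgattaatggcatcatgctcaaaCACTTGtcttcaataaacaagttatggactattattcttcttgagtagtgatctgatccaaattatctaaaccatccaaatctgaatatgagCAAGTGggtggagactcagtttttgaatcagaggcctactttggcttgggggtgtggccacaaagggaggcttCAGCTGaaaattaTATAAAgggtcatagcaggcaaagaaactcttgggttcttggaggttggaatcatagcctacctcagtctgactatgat

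TAATTG in either orientation was in 8.15% of all listed promoters, in 5.32% of those of tested genes, in 7.71% of those of genes that rose at least 4-fold and in 3.16% of those of genes that fell as much. TATAAA was in 14.2%, 8.48%, 10% and 6.32% of the same sets. The shares of the genes that rose thus lay below those of all promoters and above those of tested genes, for all 3 motifs. The Zp3 window holds 4 E-boxes and neither of the other motifs.

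Meiotic prophase genes, which pair and recombine the chromosomes before the oocyte halts, fell more often than they rose. Of 29 tested, 15 fell and 4 rose (51.7% and 13.8%), with a median of -0.72, and of -0.67 and -0.47 under the other scalings. Against primordial replicates 1 to 4 taken singly the median change was -0.75, -0.63, -0.73 and -0.77, a narrow range. Tex15, a recombination factor of germ cells, gave 921, 929.9, 986 and 1051 in primary oocytes, against 7644, 6832, 7569.9 and 9681 in primordial oocytes (-2.98 ± 0.15, adjusted p = 1.3e-06). Sycp3 gave 1085, 1378, 1196 and 1105 in primary oocytes, against 5072, 8919.7, 7429.9 and 7245 in primordial oocytes (-2.53 ± 0.19), and the transverse filament gene Sycp1 419.6, 375, 345 and 432 in primary oocytes, against 1993, 1685, 2096 and 1551 in primordial oocytes (-2.13 ± 0.16). In each of the 3 genes every primary sample lay below every primordial one.

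A few prophase genes went the other way. Psmc3ip, which aids strand exchange, rose by 1.97 and the crossover genes Msh5 and Msh4 by 1.19 and 0.89. Dmc1, the meiotic recombinase, had 84.3, 126, 75.9 and 86.4 in primary oocytes, against 100.1, 218, 155 and 58.8 in primordial oocytes, with overlapping stages and no call (-0.32 ± 0.33).

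Genes that later hold or release meiotic arrest and check the spindle gave 13 rises and 6 falls among 34 tested (38.2% and 17.6%), with a median of 0.22. Besides Mos, the checkpoint kinase gene Bub1b gave 4323, 4512, 4078 and 4189 in primary oocytes, against 731, 377, 484 and 426 in primordial oocytes (3.05 ± 0.20). Gpr3, the receptor that keeps cyclic AMP high in the oocyte, gave 894, 969, 721 and 835 in primary oocytes, against 210.1, 96.7, 129 and 62.2 in primordial oocytes (2.58 ± 0.27). Map2k1, a kinase below Mos, rose by 1.47. On the falling side the protein kinase A subunit gene Prkar2b changed by -1.50 and Arpp19, an inhibitor of phosphatase 2A, by -0.69, while Sgo1 (-1.18) and Cenpe (-1.74) each had another probe set called as a rise.

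Among 43 cell cycle drivers and inhibitors 12 rose and 9 fell (27.9% and 20.9%), with a median of 0.25. Plk1, a mitotic kinase, rose by 2.12, E2f2 by 1.52, Rbl1 by 1.15 and Mki67 by 1.02, while the p53 targets Cdkn1a and Ccng1 changed by -1.79 and -1.77, Cks2 by -1.02 and E2f6 by -1.24. Among the 48 tested genes of DNA replication there were 11 rises and 5 falls (22.9% and 10.4%), with Cdc6 at 1.33 and Cdc45 at 0.96, and with the clamp loader subunit Rfc4 at -2.80. The DNA damage response gave 8 rises and 3 falls among 33 genes (24.2% and 9.09%). Trp63, which eliminates damaged oocytes, gave 1514, 1566, 1654 and 1424 in primary oocytes, against 2673, 3504, 3580.1 and 3745 in primordial oocytes (-1.11 ± 0.15), and Chek2, the kinase that activates it, changed by -1.67 ± 0.22, whereas H2ax rose by 1.84, Hus1 by 1.70 and Palb2 by 1.44.

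Of 24 Bcl2 family and caspase genes 6 rose and 7 fell (25% and 29.2%), with a median of -0.43. Bcl2l10, abundant in oocytes, averaged 21652 ± 1153 in primary and 5899.8 ± 2534 in primordial oocytes (2.02 ± 0.35). The antiapoptotic gene Bcl2l1 rose by 0.98, Casp8 by 1.05 and Birc5 by 1.13. The death-promoting genes Bid and Bad changed by -2.24 and -1.45, but the protective genes Mcl1 and Birc6 did so too, by -1.06 and -1.63.

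Enzymes that methylate or demethylate histones, and Polycomb proteins, rose more often than they fell. Of 49 histone methylation and Polycomb genes 19 rose and 7 fell (38.8% and 14.3%), with a median of 0.24. Kdm6b, a demethylase of H3K27, gave 6044, 6319, 6586 and 6360.3 in primary oocytes, against 246, 651, 1173 and 583 in primordial oocytes (3.37 ± 0.33), and Pcgf1, a Polycomb ring finger protein, 1638, 2034, 2101 and 2079.5 in primary oocytes, against 308, 97.7, 54.1 and 30.8 in primordial oocytes (4.00 ± 0.43). Kdm5b, a demethylase of H3K4, gave 184, 151, 164 and 157 in primary oocytes, against 1392, 1013, 1152 and 1823 in primordial oocytes (-2.78 ± 0.20), with all 4 primary samples under 200. The Polycomb genes Cbx2 and Phc2 rose by 1.78 and 1.52, while Pcgf5 changed by -1.62, the methyltransferase gene Kmt2a by -1.11 and Jarid2 by -1.54, with another Jarid2 probe set called as a rise.

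Of 19 genes of DNA methylation and imprint protection 6 rose and 4 fell (31.6% and 21.1%). Dnmt3l, the cofactor that sets maternal imprints, averaged 288 ± 32.8 in primary and 35.2 ± 2 in primordial oocytes (2.25 ± 0.21), and the dioxygenase gene Tet3 2123 ± 453 in primary and 347 ± 40.5 in primordial oocytes (2.49 ± 0.21). Trim28 rose by 0.92 and Kdm1a by 0.87, whereas Dnmt3b changed by -0.94 and the imprint guardian Zfp445 by -1.24. Of 20 imprinted genes 3 rose and 5 fell (15% and 25%), with Mest at 2.23, Kcnq1 at 2.15, Ndn at -1.44, Peg3 at -1.36 and Dcn at -2.48. Dcn, also a stromal marker, had 28.3, 25.3, 55 and 20.9 in primary oocytes, against 283, 484, 429 and 175 in primordial oocytes. Of 29 histone acetylation genes 4 rose and 4 fell (13.8% each), and of 16 histone genes 3 rose and 3 fell (18.8% each), H1f8 being the largest of them and the variant H2az1 the deepest fall at -1.48.

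Proteins that store messenger RNA for the embryo, or dispose of it, moved in both directions. Of 35 storage and translation control genes 12 rose and 9 fell (34.3% and 25.7%). Patl2, a repressor in the arrested oocyte, gave 21821, 21055, 18935 and 20609 in primary oocytes, against 1805, 2594, 1491 and 1608 in primordial oocytes (3.47 ± 0.18). Poly(A)-binding genes divided: Pabpn1l, Pabpc1l and Pabpc4 rose, the last 2 by 1.49 and 1.5, while the general Pabpc1 averaged 1402 ± 433 in primary and 5580 ± 1493 in primordial oocytes (-1.98 ± 0.24). The storage helicase gene Ddx6 changed by -1.81, Stau2 by -1.70 and Fmr1 by -1.38. Of 42 deadenylation and decay genes 13 rose and 13 fell (31% each). Btg4, the adaptor that starts maternal RNA clearance, averaged 10939 ± 1151 in primary and 2715 ± 486 in primordial oocytes (2.01 ± 0.17), and the CCR4-NOT subunits Cnot3 and Cnot11 rose by 2.94 and 1.57, while the deadenylase gene Parn changed by -1.0, Btg1 by -1.78, Upf2 by -1.62 and the exosome gene Exosc9 by -1.49.

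Of 24 small RNA and piRNA genes 7 rose and 9 fell (29.2% and 37.5%), with a median of -0.23, or 0.11 with arrays at a common median. The Tudor genes Tdrd12, Tdrd5 and Tdrkh rose by 1.88, 1.85 and 1.27 and the piRNA methylase Henmt1 by 1.71. Piwil2, the Argonaute that loads piRNAs, changed by -1.28, its partner Mael by -1.04, the microRNA processor Drosha by -0.82 and Ago1 by -1.23.

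The protein synthesis machinery was treated by parts. Cytoplasmic ribosomal protein genes had 16 falls and 0 rises among 45 tested (35.6%), with a median of -0.56. Rps28 gave 7654, 8442, 7089.5 and 9216 in primary oocytes, against 23668, 30903, 26213 and 22978 in primordial oocytes (-1.67 ± 0.16, adjusted p = 3.6e-05), and Rpl37a 1784, 2482, 2130 and 2430 in primary oocytes, against 10615, 9029, 8984 and 6449.8 in primordial oocytes (-1.96 ± 0.19). Rps18 and Rps20 changed by -1.67 and -1.77. The size of this shift depended on the primordial array: the median change was -1.31, -0.27, -0.80 and 0.10 against primordial replicates 1 to 4. The number of falls was 32 with primordial replicates 1 and 3 alone and 40 with the deposited values alone, in which 58.5% of all 430A and 36.3% of all 430B probe sets were called. The Actb 3' to 5' ratio was likewise lowest on replicate 1 and highest on replicate 4, and its part was not tested.

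**Figure D4:**
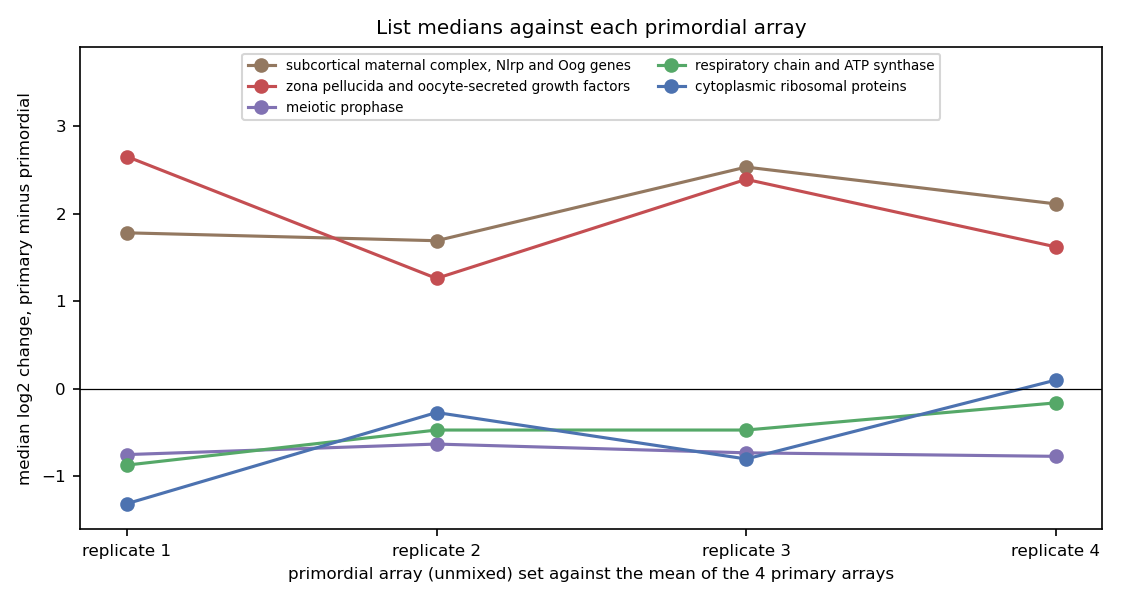
Median log2 change of 5 gene lists (vertical axis), primary minus primordial, when the mean of the 4 primary arrays is set against each unmixed primordial array in turn (horizontal axis). Zona and growth factor genes and the Nlrp and Oog list stay above 1 and meiotic prophase genes between -0.77 and -0.63 against all 4 arrays, while ribosomal protein genes range between -1.31 and 0.10.

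Genes of the respiratory chain and ATP synthase, which make most cellular ATP, fell more often than they rose. Of 80 respiratory chain and ATP synthase genes 39 fell and 6 rose (48.8% and 7.5%), with a median of -0.53, and of -0.40 and -0.33 under the other scalings. Falls were 19 of 35 in complex I, 4 of 9 in complex III, 7 of 14 in complex IV and 8 of 17 in ATP synthase, while 0 of 4 fell and 2 rose in complex II. The complex I subunit gene Ndufa12 gave 1359, 1447, 1363 and 1474 in primary oocytes, against 5513, 8570.4, 8977 and 8554 in primordial oocytes (-2.43 ± 0.18). Ndufv2 changed by -2.13, Ndufc1 by -1.90 and Atp5g3 by -1.33, while Ndufb1, Ndufa8, Ndufa9 and the complex II gene Sdha rose by between 1.01 and 1.78. The list median was -0.87, -0.47, -0.47 and -0.16 against primordial replicates 1 to 4. The last is smaller than the shift between scalings and has no settled direction. Here too the Actb 3' to 5' ratio was lowest on replicate 1 and highest on replicate 4, and its part was not tested.

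Of 21 citric acid cycle genes 8 fell and 4 rose (38.1% and 19%), with a median of -0.59. Idh3b, Idh3g and Mdh2 changed by -1.55, -1.34 and -1.21, and Dlst and Dld rose by 2.58 and 1.46. Of 33 fatty acid genes 11 fell and 5 rose (33.3% and 15.2%): the beta-oxidation genes Hadh, Hadhb and Acadl changed by -3.09, -2.78 and -2.20, while Fasn and Acsl3, of synthesis and activation, rose by 1.84 and 1.69. Hadh gave 1717, 1685, 2001 and 1842 in primary oocytes, against 5705, 20623, 20150.4 and 24802 in primordial oocytes, with primordial replicate 1 far below the other 3. Of 28 glycolysis and pentose phosphate genes 6 rose and 8 fell (21.4% and 28.6%), with Pgk1 at 3853, 3542, 3971 and 4442 in primary oocytes, against 12827, 24047, 20078 and 24345 in primordial oocytes (-2.31 ± 0.21), Ldha at -2.27, Hk1 at -1.68, and Ldhc and Pkm at 1.27 and 2.00.

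Of 21 serine and folate pathway genes 5 rose and 4 fell (23.8% and 19%), Psat1 being the deepest fall and Mthfd1 the largest rise named, at 2.08. Of 22 cholesterol genes 6 rose and 2 fell (27.3% and 9.09%), with Srebf1, the lipid regulator, at 0.94, and of 24 amino acid transporters 6 rose and 3 fell (25% and 12.5%), with the taurine carrier Slc6a6 at 2.47, Slc3a2 at 1.59 and Slc38a2 at -2.68. Of 31 glutathione and antioxidant genes 10 rose and 11 fell (32.3% and 35.5%): Prdx2 and Glrx rose by 2.31 and 2.44, whereas catalase (Cat) gave 64.1, 85.7, 111 and 68.8 in primary oocytes, against 367, 1449.9, 1424 and 1813 in primordial oocytes (-3.31 ± 0.43), Gsto1 changed by -2.54 and Sod2 by -1.23. Of 22 zinc transporters and metallothioneins 5 rose and 7 fell (22.7% and 31.8%), with Slc39a10, a zinc importer of oocytes, averaging 13362 ± 824 in primary and 3315 ± 516 in primordial oocytes (2.01 ± 0.15).

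Other parts of gene expression moved in both directions. RNA polymerase II, its general factors and Mediator had 29 rises and 8 falls among 72 genes (40.3% and 11.1%), with a median of 0.30, and 18 rises with primordial replicates 1 and 3 alone. The polymerase subunit gene Polr2c rose by 1.94 and the TFIID genes Taf8 and Taf3 by 2.41 and 2.26, whereas Polr2a, the catalytic subunit, changed by -1.03 and Gtf2h4 by -1.6. Of 59 splicing factors 16 rose and 18 fell (27.1% and 30.5%), with Srsf3 at -2.41 and Hnrnpul2 at 1.59, and of 50 nuclear pore and transport genes 12 rose and 14 fell (24% and 28%), with the oocyte importin Kpna7 averaging 11893 ± 419.5 in primary and 1746 ± 265 in primordial oocytes (2.76 ± 0.15). Of 63 ribosome assembly and RNA polymerase I genes 18 rose and 13 fell (28.6% and 20.6%), with Taf1a at 2.65 and Polr1c at -1.93.

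Of 75 mitochondrial ribosomal proteins 11 rose and 17 fell (14.7% and 22.7%), with Mrps27 at 2.57 and Mrpl52 at -2.46. Of 44 translation factors 10 rose and 7 fell (22.7% and 15.9%): the Eif2b subunits Eif2b1 and Eif2b4 rose by 2.22 and 1.66, and the Eif3 subunits Eif3e, Eif3a and Eif3f changed by -1.61, -1.42 and -1.31. Of 34 tRNA synthetases 5 rose and 5 fell (14.7% each).

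Protein folding and turnover lists held both rises and falls, and ubiquitin-specific protease and tripartite motif genes had a smaller share of falls than the background. Of 70 chaperones 17 rose and 13 fell (24.3% and 18.6%), the chaperonin genes Cct6a, Cct4 and Cct3 changing by -2.03, -1.37 and -1.10 while Dnajc11 and Hspa1b rose by 2.51 and 2.38. Of 48 endoplasmic reticulum genes 14 rose and 10 fell (29.2% and 20.8%), with the foldase Pdia6 at 2.62, Calr at 1.32, and Derl1 and Xbp1 at -2.76 and -1.42. Of 37 proteasome subunits 9 rose and 8 fell (24.3% and 21.6%), and the number of rises was 3 with primordial replicates 1 and 3 alone; Psma8, a germ cell subunit, averaged 29.8 ± 27.1 in primary and 487 ± 95.8 in primordial oocytes (-3.14 ± 0.30). Of 45 ubiquitin-specific proteases 12 rose and 4 fell (26.7% and 8.89%), led by Usp46 at 2.93, and of 45 tripartite motif genes 11 rose and 3 fell (24.4% and 6.67%), led by Trim61, with 18412, 17796, 14448 and 15418 in primary oocytes, against 718, 991, 644 and 895 in primordial oocytes (4.31 ± 0.17), and its relatives Trim75 and Trim60 at 2.89 and 1.65. Of 54 autophagy and lysosome genes 12 rose and 11 fell (22.2% and 20.4%), with the cathepsins Ctsh at 2.44 and Ctsl at -2.42.

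The cytoskeleton lists differed from each other in their counts. Of 41 actin nucleators, formins and myosins 17 fell and 7 rose (41.5% and 17.1%), with a median of -0.37, and of -0.28 and -0.17 under the other scalings: cortactin (Cttn) changed by -2.36 and the Arp2/3 subunits Arpc5 and Arpc2 by -2.22 and -1.65, while Pfn1 and Pfn2, the profilins, were at 2.22 and -1.45. Of 51 tubulins and kinesins 14 rose and 9 fell (27.5% and 17.6%): the motor gene Kif17 averaged 6524 ± 437 in primary and 492 ± 139 in primordial oocytes (3.69 ± 0.21), Tubb6, Tubg2 and Tubb3 rose by 3.04, 2.91 and 2.80, and Tuba1a and Kif21a changed by -1.75 and -2.21. Of 52 Rab GTPases 11 rose and 10 fell (21.2% and 19.2%), with Rab3b, of secretory vesicles, averaging 520.1 ± 77.4 in primary and 32.7 ± 12.5 in primordial oocytes (3.10 ± 0.23). Of 10 Bex and Maged genes 4 fell and 1 rose (40% and 10%), Bex3 and Bex1 changing by -3.12 and -2.50.

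Signalling between the oocyte and its surroundings showed a few marked changes. Gja4, the connexin of the junctions that tie the oocyte to granulosa cells, gave 5323, 6607, 6340.5 and 6168 in primary oocytes, against 1512, 949, 954 and 939 in primordial oocytes (2.48 ± 0.18, adjusted p = 8.1e-06). Among 23 gap junction and adhesion genes it was 1 of 5 rises beside 3 falls (21.7% and 13%), of which desmoplakin (Dsp) and Epcam changed by -2.47 and -2.32. Of 23 BMP, activin and TGF-beta receptor and SMAD genes 4 rose and 6 fell (17.4% and 26.1%). Id2, a BMP target that blocks helix-loop-helix factors, gave 54.3, 68.2, 75.9 and 73.6 in primary oocytes, against 1143, 368, 609.7 and 529 in primordial oocytes (-2.69 ± 0.30), while Smad2 and Acvr1b rose by 1.56 and 0.93.

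Of 35 Notch, hedgehog and Wnt genes 10 rose and 4 fell (28.6% and 11.4%), with a median of 0.20. The Notch ligands Jag2 and Jag1, by which the oocyte signals to granulosa cells, rose by 1.85 and 1.52, Axin2 by 1.49 and Sufu by 1.46, whereas Notch2 and the hedgehog receptor Ptch1 changed by -1.30 and -1.06. Of 16 steroid, thyroid and retinoid genes 2 rose and 2 fell (12.5% each), among them Crabp2, a retinoic acid carrier, at 2.48. Of 24 calcium store, channel and calmodulin kinase genes 7 rose and 4 fell (29.2% and 16.7%), with Camk2g, the kinase of egg activation, averaging 4573 ± 714 in primary and 975 ± 124 in primordial oocytes (2.19 ± 0.17), the store channel Orai1 at 1.73 and Ryr2 at -1.70.

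Several of these counts depended on the scaling or on the primordial arrays used. With arrays at a common median 3426 genes rose and 1473 fell, and falls then numbered 4 in place of 7 in the activation pathway, 3 in place of 6 among oocyte transcription regulators, 1 in place of 6 for BMP receptors, 3 in place of 6 for meiotic arrest, 3 in place of 9 for small RNA genes and 2 in place of 7 for zinc transporters. They were also over 1.5 times fewer for cell cycle drivers (5), imprinted genes (3), decay factors (8), mitochondrial ribosomal proteins (10), the citric acid cycle (5), actin (10), the nuclear pore (9), Mediator and polymerase II (4), replication (3), autophagy (6), Rab (6), F-box (4) and ubiquitin-specific protease genes (2). Rises were then over 1.5 times more numerous for adhesion (8), histone acetylation (8) and cholesterol genes (10).

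With primordial replicates 1 and 3 alone, rises numbered 5 in place of 8 in the activation pathway, 2 in place of 4 for histone acetylation, 7 in place of 11 for mitochondrial ribosomal proteins, 6 in place of 10 for translation factors and 3 in place of 5 for tRNA synthetases. Falls numbered 3 among oocyte transcription regulators, 3 for BMP receptors, 4 for the cell cycle, 1 for DNA methylation, 6 for Rab genes and 8 for tRNA synthetases. Among the lists with at least 4 calls in a direction, the rises of zona, egg surface, Nlrp and Oog, F-box and histone methylation genes and the falls of meiotic prophase and respiratory chain genes stayed within 1.5 times of the counts given under both settings.

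A few genes named above lost their call under a setting. With arrays at a common median this held for Yy1 (limma adjusted p = 0.063), Mfge8 (0.055), Arpp19 (0.08), Drosha (0.07) and Mael (0.087). With primordial replicates 1 and 3 alone it held for Lhx8 (limma adjusted p = 0.055), Yy1 (0.054), Mfge8 (0.054), Birc5 (0.076), Zfp445 (0.073), Ago1 (0.056), Star (0.061) and Ndufa9 (0.053), and with quantile normalization for E2f6 (0.054) and Nr5a2 (0.058). Of the 427 called probe sets followed singly, 0 changed direction under the settings in which they were tested, and 407 of them were tested with the filter at 200.

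**Figure D5:**
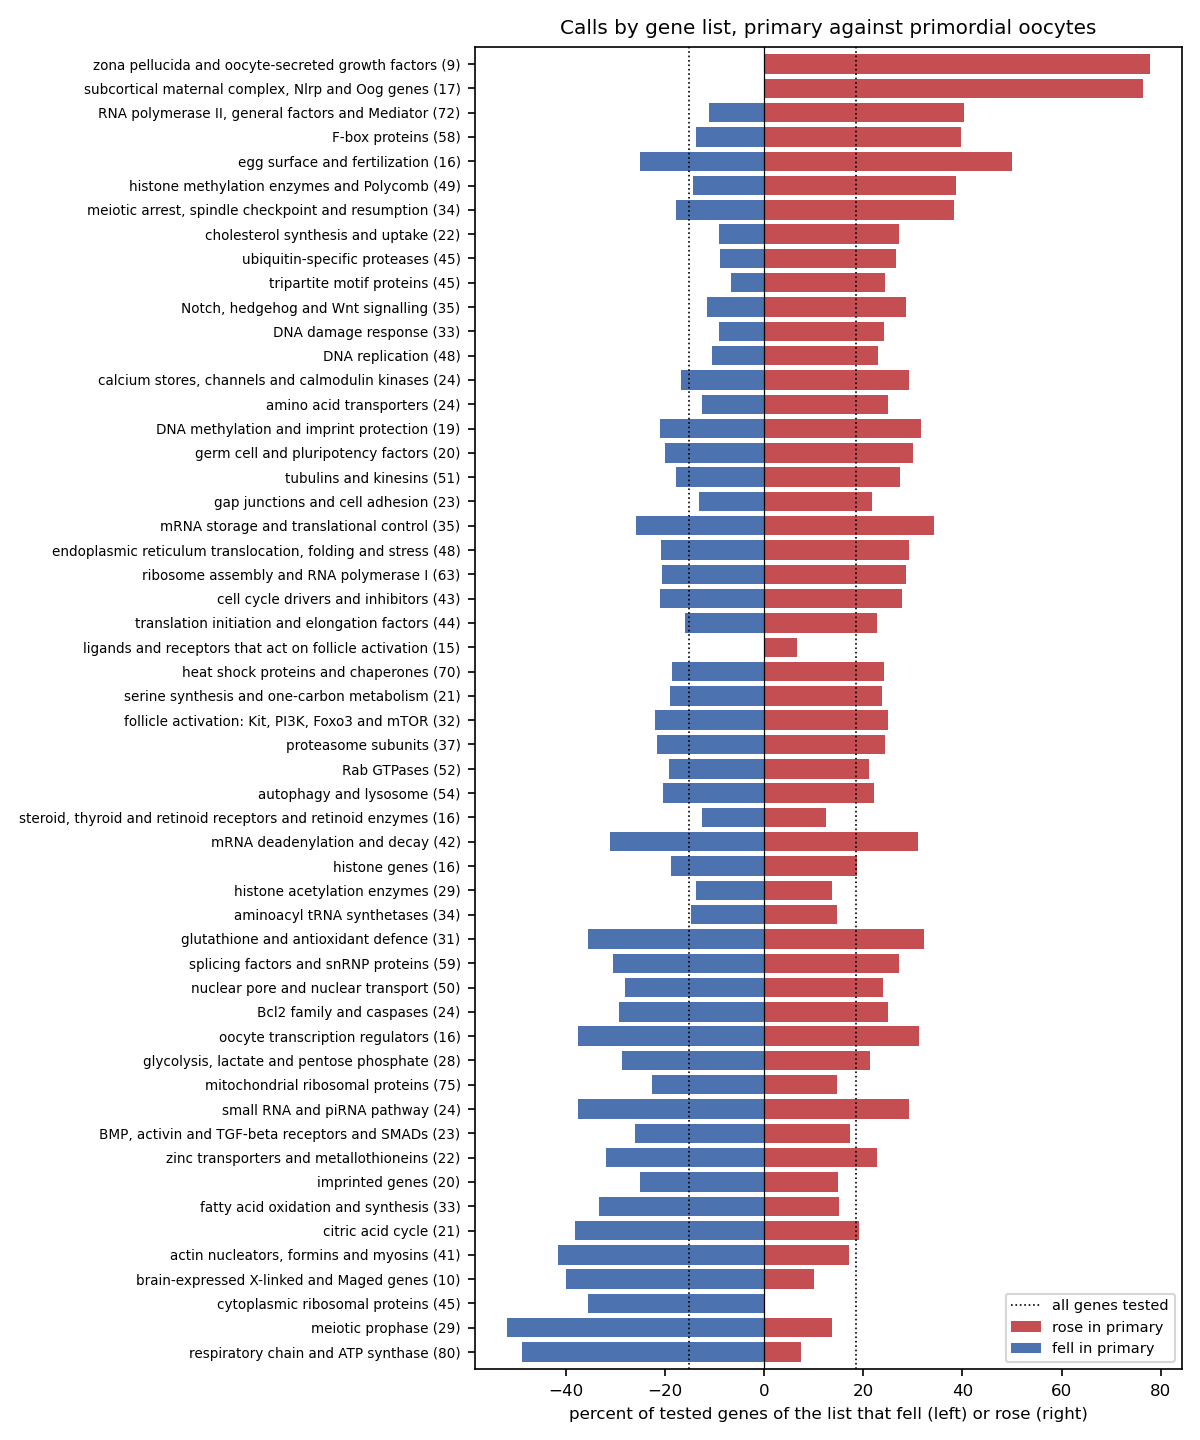
Percent of the tested genes of each list that fell (bars to the left) or rose (bars to the right) in primary relative to primordial oocytes, with the number tested in parentheses and dotted lines at the 18.5% of all genes that rose and the 15.2% that fell. Zona and growth factor genes and the Nlrp and Oog list stand at the top with 77.8% and 76.5% rises, and the respiratory chain and meiotic prophase at the bottom with 48.8% and 51.7% falls.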

How the data were processed

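Oocyte RNA isolated with a Picopure kit was amplified and biotin-labelled by Affymetrix's small sample procedure and hybridised to 430A and 430B arrays, 1 sample per array, per the labels. The deposited values are probe set intensities on a linear scale, made by the authors with MAS 5 per the submitters' processing notes. The members, the gene lists and the tests were chosen with earlier results of these data known, and family lists were matched by symbol patterns.

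Here primordial replicates 2 to 4 were unmixed, arrays were brought to a trimmed mean of 500 (2% trimmed at each end), and log2(signal + 32) was fitted with limma 3.58.1 in R 4.3.3 on the 8 arrays of both stages, within each array type, with a trended prior and Benjamini-Hochberg adjustment over all tested probe sets. This left 6 residual degrees of freedom. Fold changes are on that log2 scale and understate changes of low signals. Adjusted p-values printed come from that fit. Testing required a signal of 100 on at least 4 of the 8 arrays. The fit was tested on simulated data. The number of arrays limits the precision, with a median SE of 0.25 on 430A and 0.4 on 430B. The median log2 change of all tested probe sets was -0.05 and -0.17.

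Symbols came from the platform annotation, updated through gene identifiers: on 430A 20284 probe sets have 1 symbol, 687 several and 1555 none, and on 430B 14565, 241 and 7605, and those with several were not named. A gene is represented by 1 probe set, and of 2564 called genes with several tested probe sets 257 had another called the opposite way. Left out were 64 control probe sets and 100 off-grid probe sets of 430A. Genes named are the 12 largest rises and falls on 430A and the 5 on 430B without overlap of the stages, the 4 of smallest adjusted p in each direction of each list, and list members not called; others are said to be chosen after their values were seen. Alternatives tried were other scalings, quantile normalization, other offsets and filters, array weights, the deposited values, all 20 arrays of a type, a replicate block and fewer arrays. A few genes are not reported here.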

Additional observations from a re-analysis of the deposited data

Results flagged for a closer look

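Of 68 groups of 4 samples of the genes of largest change that were checked, 2 had a sample far from the other 3, and chance alone gives about 1 in 20. Cpa1 had a signal of 224.2 in primordial replicate 2, against 16.2, 26 and 43.6 in the other primordial samples, a gap of 0.868 of the group's range. Rasa4 had 116.4 in primordial replicate 1, against 36.2, 36.5 and 38.5 in the others, a gap of 0.971 of the range. In both genes every primordial sample stayed far below every primary one.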

How the results depend on the processing

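On 430A the number of probe sets called stayed within 1.5 times of 5925 under every alternative run, with 5688 under quantile normalization, 5455 with primordial replicates 1 and 3 alone, 6793 with all 20 arrays in the fit and 6789 with array weights. It lay between 4861 and 6716 when 1 array was left out, with rises between 2378 and 3284 and falls between 2482 and 3432. On 430B the count of 3024 was 6112 with the deposited values alone, with 2308 rises and 3804 falls, and at a common median 2162 rose and 840 fell. It lay between 2290 and 3191 when 1 array was left out. In the deposited fit the primordial arrays share replicate 1, so their spread is too small by construction. With the unmixed values alone 6007 probe sets on 430A and 3044 on 430B passed, so asking for both fits removed few calls.

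Both stages carry replicate numbers 1 to 4, but the numbers did not pair the samples: deviations of same-numbered samples from their stage means correlated at -0.121, 0.004, -0.026 and -0.13 on 430A and at -0.014, -0.007, 0.006 and -0.005 on 430B. With the replicate block 5257 and 2689 probe sets were called.

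Of 427 probe sets followed singly, 216 rises and 211 falls, 375 kept their call in every alternative in which they were tested, 52 lost it in at least 1 and 0 changed direction. Losses were 29 at a common median, 35 with primordial replicates 1 and 3 alone, 11 with the replicate block, 9 with quantile normalization, 6 with no filter and 0 with other offsets. The cause of these losses was not tested. Rps6, Ddx4, Acvr2a, Bmpr2, Cyp26b1, Sycp2, Tet1, Hells, Ube3a and Fbxo3 lost their call without 1 of the arrays (limma adjusted p up to 0.1). After this was seen, they were counted in their lists but not described singly. Such a loss also affected Tgfbr3, Thra, Rxrb, Nectin1, Cyp51, Dhcr7, Slc39a1, Slc39a11, Gmnn, Usp11, Trim59, H1f2 and Nr5a2 (limma adjusted p up to 0.13). Of these only Nr5a2 is described singly above.

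Limits are the 4 samples per stage, the stage being tied to age and pool size, primordial values recovered by arithmetic from mixed columns, the differing Actb 3' to 5' ratios of primordial arrays, and relative levels within a fixed array total. Probe sets of near-identical family members (Nlrp, Oog, Obox, Oas1, Fbxw) are uncertain as to the gene they read.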
